A study of Mus musculus with 18 samples.

Results

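T cells act on dendritic cells (DC) and macrophages through a small set of secreted and membrane-bound ligands, and 6 of these ligands were followed here in CD3+ tumor-infiltrating lymphocytes (TILs): Flt3l, Xcl1, Csf1, Csf2, Cd40lg and Tnfsf11. They were chosen with earlier results of these data known and taken by gene symbol from the 37236 genes of the expression table. All 6 had a row. Flt3l encodes FLT3 ligand, the growth factor on which DC precursors depend. Xcl1 encodes the chemokine that draws XCR1+ cross-presenting DC, and in tumors it comes from CD8+ T cells and NK cells. Csf1 and Csf2 encode M-CSF and GM-CSF, growth factors of macrophages and of granulocytes, macrophages and DC. Cd40lg encodes CD40 ligand, which activated CD4+ T cells use to license DC, and Tnfsf11 encodes RANKL, a TNF family ligand that prolongs DC survival and drives osteoclast formation. In lymphoid tissue and tumors these signals let T cells shape how long antigen-presenting cells live, where they gather and how well they prime further T cells.

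The cells came from C57BL/6 mice of 8 to 12 weeks that were either wild-type (Nr2f6+/+) or lacked the nuclear receptor NR2F6 in the whole body (Nr2f6-/-), so tumor stroma and myeloid cells of the knockout mice lacked the gene as well. All mice carried a subcutaneous tumor grown from 500000 B16-OVA cells, a melanoma line expressing ovalbumin, and received repeated intraperitoneal injections of 0.5 mg antibody from d3, either the IgG2b control or anti-PD-L1. TILs were taken at d14 with CD4 and CD8 beads, pooled and sorted for CD3, and their RNA was read with a 3′ tag kit, 18 libraries in all. The 4 groups were Nr2f6+/+ IgG2b (n = 3), Nr2f6-/- IgG2b (n = 3), Nr2f6+/+ anti-PD-L1 (n = 6) and Nr2f6-/- anti-PD-L1 (n = 6, called the combination group below). The labels do not say whether each library is a separate mouse, so p-values measure the spread between these libraries. Library numbers fell into 2 sets. The second was made up of anti-PD-L1 libraries alone (replicates 4, 5 and 6 of either genotype), so differences within the first set are given beside the ligands' differences between antibodies.

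Libraries held 12473391 to 18609482 reads on genes. Nr2f6 had 0 reads in every Nr2f6-/- library and 20.2 to 200.8 normalized counts in the Nr2f6+/+ libraries. T cell markers were detected in every library, with a summed level of 89180 to 150900 normalized counts over 10 genes, and Cd3e lay between 7381 and 15541. Markers of macrophages were detected too, at a summed level over 14 genes of 14750 to 17590 in Nr2f6+/+ IgG2b, 8225 to 11630 in Nr2f6-/- IgG2b, 1480 to 6077 in Nr2f6+/+ anti-PD-L1 and 927.3 to 2303 in the combination group. In bulk RNA, fewer cells of a type and less RNA per cell cannot be told apart. A normalized count is the read count divided by the library's size factor, and 3 reads, used here as the detection floor, correspond to 2.46 to 3.64 normalized counts. Differences are log2 fold changes on the scale of log2(normalized count + 1) from limma, with Benjamini-Hochberg adjustment over the 11992 genes whose mean reached 10 normalized counts and a threshold of 0.05. Flt3l, Xcl1, Csf1, Cd40lg and Tnfsf11 passed that filter, and Csf2 did not.

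The promoters of Flt3l, Xcl1 and Tnfsf11 are shown because Flt3l carried the one difference that passed the test and the other two had lower values in most libraries from anti-PD-L1-treated mice. Each run is the 250 bases before the annotated start, 5′ to 3′ along the gene, from RefSeq on GRCm38.p6. All 3 genes lie on the minus strand, and the windows are chr7:45136433-45136682 for Flt3l, chr1:164935523-164935772 for Xcl1 and chr14:78308044-78308293 for Tnfsf11. The Flt3l window overlaps the gene span given below, which ends at 45136490, so it belongs to a start inside that span. Capitals mark the NFAT core, GGAAA on either strand.
Flt3l: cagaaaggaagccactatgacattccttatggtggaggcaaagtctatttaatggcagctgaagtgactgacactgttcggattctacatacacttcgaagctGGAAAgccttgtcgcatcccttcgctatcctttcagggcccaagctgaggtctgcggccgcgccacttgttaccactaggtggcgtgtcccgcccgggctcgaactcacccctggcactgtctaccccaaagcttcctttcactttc
Xcl1: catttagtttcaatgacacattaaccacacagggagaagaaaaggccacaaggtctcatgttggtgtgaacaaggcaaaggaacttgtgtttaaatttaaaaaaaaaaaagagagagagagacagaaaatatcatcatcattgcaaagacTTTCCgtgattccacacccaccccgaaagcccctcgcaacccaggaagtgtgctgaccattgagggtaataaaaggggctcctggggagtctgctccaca
Tnfsf11: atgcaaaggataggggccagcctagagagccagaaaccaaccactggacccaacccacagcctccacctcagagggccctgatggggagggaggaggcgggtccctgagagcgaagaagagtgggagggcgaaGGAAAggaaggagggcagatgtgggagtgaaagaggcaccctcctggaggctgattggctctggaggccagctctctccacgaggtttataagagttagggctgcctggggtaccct

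Of the 6 ligands, 5 matched an entry of the RefSeq promoter table: Flt3l, Xcl1, Csf1, Csf2 and Tnfsf11. The NFAT core was present in all 5, and 55.6% of the 32851 promoter windows of the same length held it. Its first base lay 147 bases before the start used for the window in Flt3l, 100 in Xcl1 and 117 in Tnfsf11. An AP-1 match (TGANTCA) was found in none of the 5 windows and in 6.75% of all windows, and the nuclear receptor core AGGTCA in none of the 5 and in 14% of all. For NF-kB, GGG and TTTCC 2 bases apart occurred in 1.41% of all windows and GGG and TTCC 3 bases apart in 4.65%. Every match to the first form is by its letters also a match to the second and holds an NFAT core. Csf1 alone among the 5 held such a match, 154 to 145 bases before its start. The matches describe letters in these windows and nothing more.

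Flt3l separated the 2 genotypes under PD-L1 blockade. Its normalized count in the combination group ran from 1109 through a median of 1495 to 2074, and in Nr2f6+/+ anti-PD-L1 from 572.3 through 721.5 to 846.9. Every combination library was above every Nr2f6+/+ anti-PD-L1 library, which held in this direction for 0.392% of all genes tested. The 3 Nr2f6+/+ IgG2b libraries had 1088, 1044 and 875, and the 3 Nr2f6-/- IgG2b libraries 927, 1149.6 and 802. The IgG2b groups overlapped each other. Of the 6 combination libraries, 5 lay above the Nr2f6-/- IgG2b libraries.

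Group means of Flt3l, in order, were 721.7 ± 109.8 normalized counts in Nr2f6+/+ anti-PD-L1 (SD, n = 6), 959.9 ± 175.8 in Nr2f6-/- IgG2b (n = 3), 1002 ± 112.5 in Nr2f6+/+ IgG2b (n = 3) and 1551 ± 386.3 in the combination group (n = 6). Between the outer groups of that order the log2 fold change was 1.08 (SE 0.22, 95% interval 0.63 to 1.53) and the limma adjusted p was 0.0274. Flt3l was the only one of the 5 tested ligands past the threshold in that comparison, where 0.0917% of genes tested rose and 0.175% changed in either direction. At an unadjusted limma p under 0.05 it was likewise the only one, beside 9.73% of all genes. Because the ligands were chosen with earlier results of these data known, these shares are not a chance rate for them. Nr2f6-/- IgG2b and its lower neighbour in the order, Nr2f6+/+ anti-PD-L1, differ in genotype and antibody and were not tested against each other. The other neighbours were tested and did not pass. The combination group stood 0.67 above Nr2f6-/- IgG2b (SE 0.27, limma unadjusted p = 0.0186, adjusted p = 0.382) and 0.60 above Nr2f6+/+ IgG2b (SE 0.27, limma adjusted p = 0.484), with all 6 libraries above the 3 of the latter group, as for 2.17% of genes tested. In wild-type mice Flt3l stood lower with anti-PD-L1 than with IgG2b by a log2 fold change of -0.48 (SE 0.27, limma adjusted p = 0.767), and all 6 libraries lay below the 3 controls, as for 3.22% of genes tested. The Flt3l differences between antibodies within the first library set were 0.75 in Nr2f6-/- mice, 0.68 for the combination group against Nr2f6+/+ IgG2b and -0.57 in Nr2f6+/+ mice. Between genotypes under IgG2b it was -0.07 (95% interval -0.71 to 0.56, limma adjusted p = 1.0).

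The difference between the blockade effects in the 2 genotypes, an interaction of 1.15 for Flt3l (SE 0.38, limma unadjusted p = 0.0051, a level reached by 4.97% of genes tested), had an adjusted p of 0.974 and so did not pass. The call between the anti-PD-L1 groups was close to the threshold and sensitive to which libraries were used. It was lost in limma when combination replicate 2, 3 or 6 was left out (adjusted p = 0.0765, 0.0855 and 0.0573) and when Nr2f6+/+ anti-PD-L1 replicate 1, 4 or 5 was left out (adjusted p = 0.0706, 0.0531 and 0.053), while the fold change stayed between 0.99 and 1.17. Within the first library set alone the log2 fold change was 1.25 (limma adjusted p = 0.0836), and within the second 0.91 (limma adjusted p = 0.702). Fitting only the anti-PD-L1 groups gave 1.08 with an adjusted p of 0.0968 in limma, and count models on the recovered reads gave 1.11 with adjusted p = 0.0217 in edgeR and 1.10 with adjusted p = 5.27e-05 in DESeq2.

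**Figure D1:**
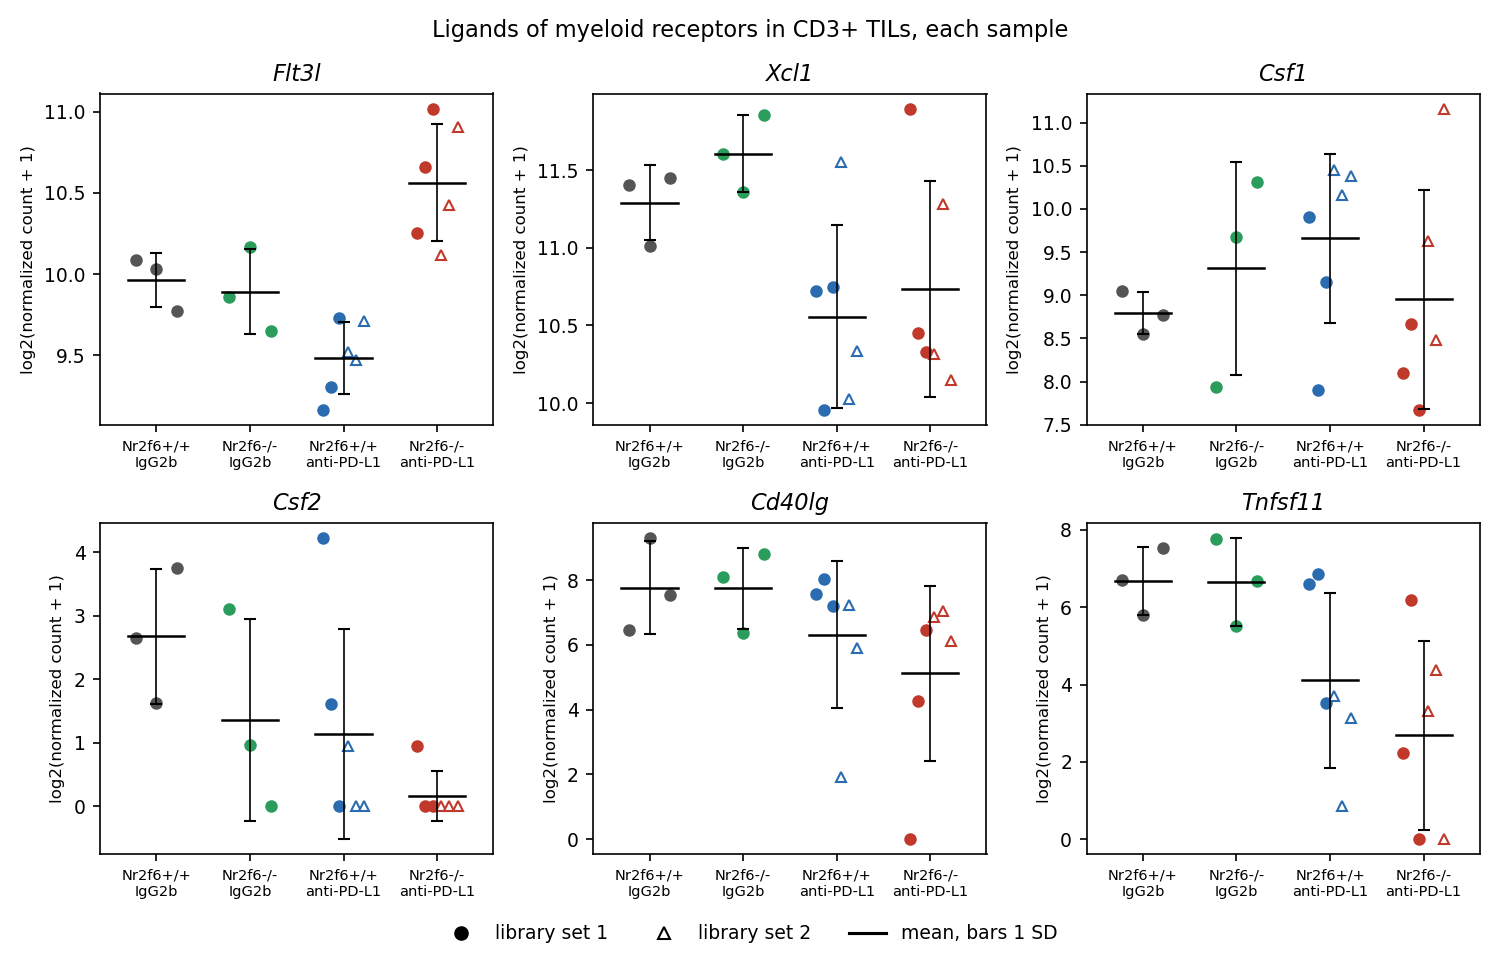
Level of each ligand, as log2(normalized count + 1) on the y axis, in each of the 18 libraries by group on the x axis; circles are the first and triangles the second library set, lines are group means and bars 1 SD. Flt3l is the ligand in which the combination group, 1109 to 2074 normalized counts, lies wholly above Nr2f6+/+ anti-PD-L1, 572.3 to 846.9.

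Cd8a, a coreceptor chain of CD8+ T cells, also had higher values in the combination group, with a range of 5361 to 13579 normalized counts in Nr2f6+/+ anti-PD-L1 and of 11329 to 17120 in the combination group (log2 fold change 0.54, SE 0.18, limma adjusted p = 0.278). Flt3l was therefore also set against T cell genes within each library, a comparison chosen after its values were seen. Relative to Cd3e, a subunit of the T cell receptor complex, Flt3l was 0.88 higher on the log2 scale in the combination group (exact permutation test, two-sided, p = 0.00216, the smallest that 6 against 6 can give; p = 0.0649 after Benjamini-Hochberg adjustment over 30 such tests), and the groups did not overlap. Relative to Cd8a the difference was 0.54 and the groups overlapped (exact permutation test, two-sided, p = 0.0887). Within the first library set the ratio to Cd8a differed by 0.96 and within the second by 0.12. In wild-type mice the ratio of Flt3l to Cd3e stood lower with anti-PD-L1, by a log2 difference of 0.82 and without overlap (exact permutation test, two-sided, p = 0.0238, the smallest that 6 against 3 can give; adjusted p = 0.204).

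**Figure D2:**
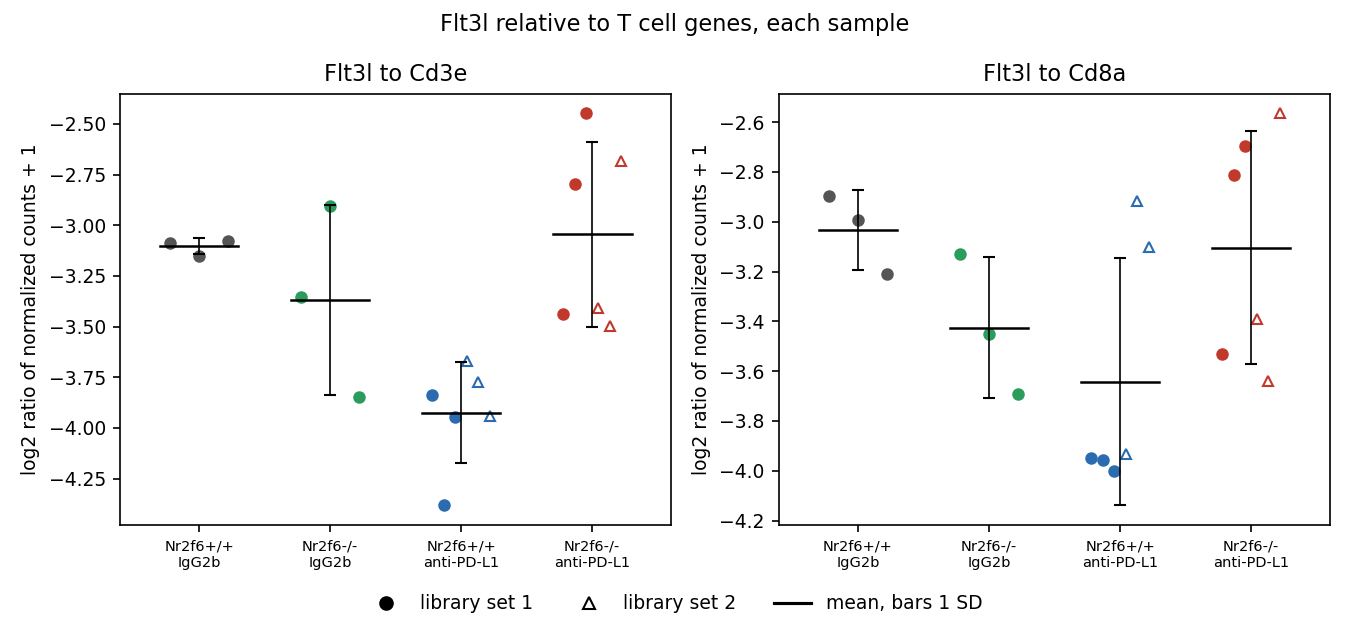
Flt3l relative to Cd3e (left) and to Cd8a (right), as the log2 ratio of normalized counts + 1 on the y axis, in each library by group; circles are the first and triangles the second library set, lines are means and bars 1 SD. The ratio to Cd3e differs by 0.88 between the anti-PD-L1 groups without overlap, the ratio to Cd8a by 0.54 with overlap.

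Flt3l lies at chr7:45131183-45136490 beside Rpl13a, a ribosomal protein gene, and GENCODE holds a readthrough model, Gm45713, across both on the same strand, so reads of Flt3l could fit either model. Whether the counting assigned such reads or left them out is not given in the sources used here. Rpl13a overlapped between the anti-PD-L1 groups, with 36006 to 86747 normalized counts in Nr2f6+/+ and 32774 to 87419 in the combination group.

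**Figure D3:**
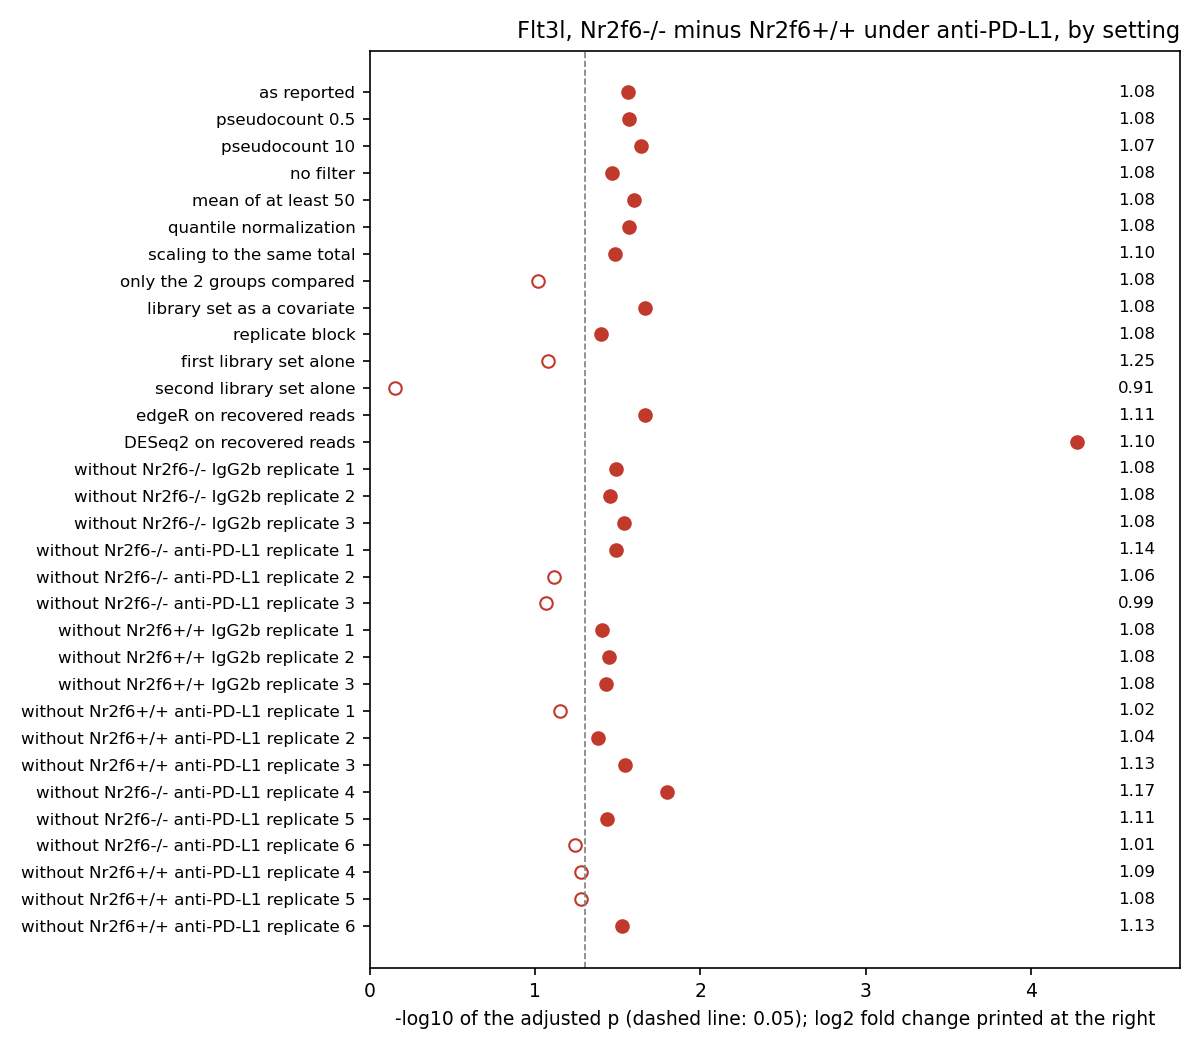
Flt3l between the anti-PD-L1 groups under each processing setting on the y axis; the x axis is the −log10 adjusted p, the dashed line marks 0.05, filled points pass it and the log2 fold change is printed at the right. The fold change stays between 0.91 and 1.25 while the adjusted p crosses the threshold in several settings.

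Xcl1 (chr1:164931644-164935522) had lower values in most libraries from anti-PD-L1-treated mice of either genotype. Its normalized counts were 2709, 2068 and 2800.1 in Nr2f6+/+ IgG2b and 3112, 2621 and 3697 in Nr2f6-/- IgG2b. With anti-PD-L1 they ran from 992 through a median of 1488 to 2999 in Nr2f6+/+ mice and from 1133 through 1343 to 3812 in the combination group. In each genotype 5 of 6 anti-PD-L1 libraries lay below all 3 IgG2b libraries and 1 lay above all 3 of them.

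Against IgG2b, Xcl1 differed by -0.73 in Nr2f6+/+ mice (SE 0.33, limma unadjusted p = 0.0353, adjusted p = 0.638) and by -0.87 in Nr2f6-/- mice (SE 0.33, limma unadjusted p = 0.0141, adjusted p = 0.341), so neither difference passed. The median of all genes tested was -0.10 in the first of these comparisons in limma and 0.04 in edgeR. Within the first library set the Xcl1 differences were -0.82 and -0.71. Genotype made a difference of 0.18 under blockade (95% interval -0.38 to 0.74, limma adjusted p = 0.873) and of 0.31 under IgG2b (95% interval -0.47 to 1.10), and the interaction was -0.13 (SE 0.47, limma adjusted p = 0.995). Since CD8+ T cells are a main source of Xcl1, its ratio to Cd8a was compared as well. That log2 ratio stood lower with blockade by 0.86 in Nr2f6+/+ and by 1.22 in Nr2f6-/- mice (exact permutation test, two-sided, p = 0.0476 each, adjusted p = 0.204 over 30 tests), and the groups overlapped in both. Within the first library set alone the differences were -1.18 and -1.05, where 3 against 3 cannot give an exact permutation p below 0.1.

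Tnfsf11 and Cd40lg, the membrane-bound TNF family ligands, had their lowest values under blockade. Tnfsf11 (chr14:78277446-78308043) had 104, 54.2 and 185 normalized counts in Nr2f6+/+ IgG2b and 218, 44.3 and 102 in Nr2f6-/- IgG2b. Under anti-PD-L1 it ran from 0.82 through a median of 11.3 to 115 in Nr2f6+/+ mice and from 0 through 6.36 to 71.2 in the combination group. Of the combination libraries, 5 lay below all IgG2b libraries of either genotype, and 2 had no read of Tnfsf11.

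Tnfsf11 in the combination group differed by -3.97 from Nr2f6-/- IgG2b (SE 1.54, limma unadjusted p = 0.0155, adjusted p = 0.352) and by -3.99 from Nr2f6+/+ IgG2b (SE 1.54, limma unadjusted p = 0.0149, adjusted p = 0.334). In Nr2f6+/+ mice the blockade difference was -2.57 (SE 1.54, limma adjusted p = 0.787). Within the first library set, which holds all IgG2b libraries, the 3 differences of Tnfsf11 were -3.85, -3.87 and -1.02. Genotype under blockade gave -1.43 (95% interval -4.00 to 1.15), with -2.85 within the first library set and 0.000399 within the second. In Nr2f6+/+ anti-PD-L1 the first set held 10.5 to 115 normalized counts and the second 0.82 to 12.1.

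Cd40lg (chrX:57212143-57224042) spread widely within groups, with 86.1, 631 and 186 normalized counts in Nr2f6+/+ IgG2b and 270.2, 81.0 and 443 in Nr2f6-/- IgG2b. In Nr2f6+/+ anti-PD-L1 it ran from 2.78 through 148 to 259, and in the combination group from 0 through 77.2 to 130.4. All groups overlapped. Against IgG2b the combination group stood at -2.63 (Nr2f6-/-, SE 1.36, limma unadjusted p = 0.0633, adjusted p = 0.537) and -2.64 (Nr2f6+/+, SE 1.36, limma adjusted p = 0.587), and within the first library set at -4.17 and -4.19 (limma adjusted p = 0.304 and 0.211). For blockade in Nr2f6+/+ mice the difference of Cd40lg within that set was -0.16. Genotype under blockade gave -1.19 for Cd40lg (95% interval -3.46 to 1.08), and the library sets went in opposite directions, -4.03 in the first and 1.65 in the second. Relative to Cd4 the combination group differed from Nr2f6-/- IgG2b by a log2 difference of -2.33 (p = 0.119, exact permutation test, two-sided).

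**Figure D4:**
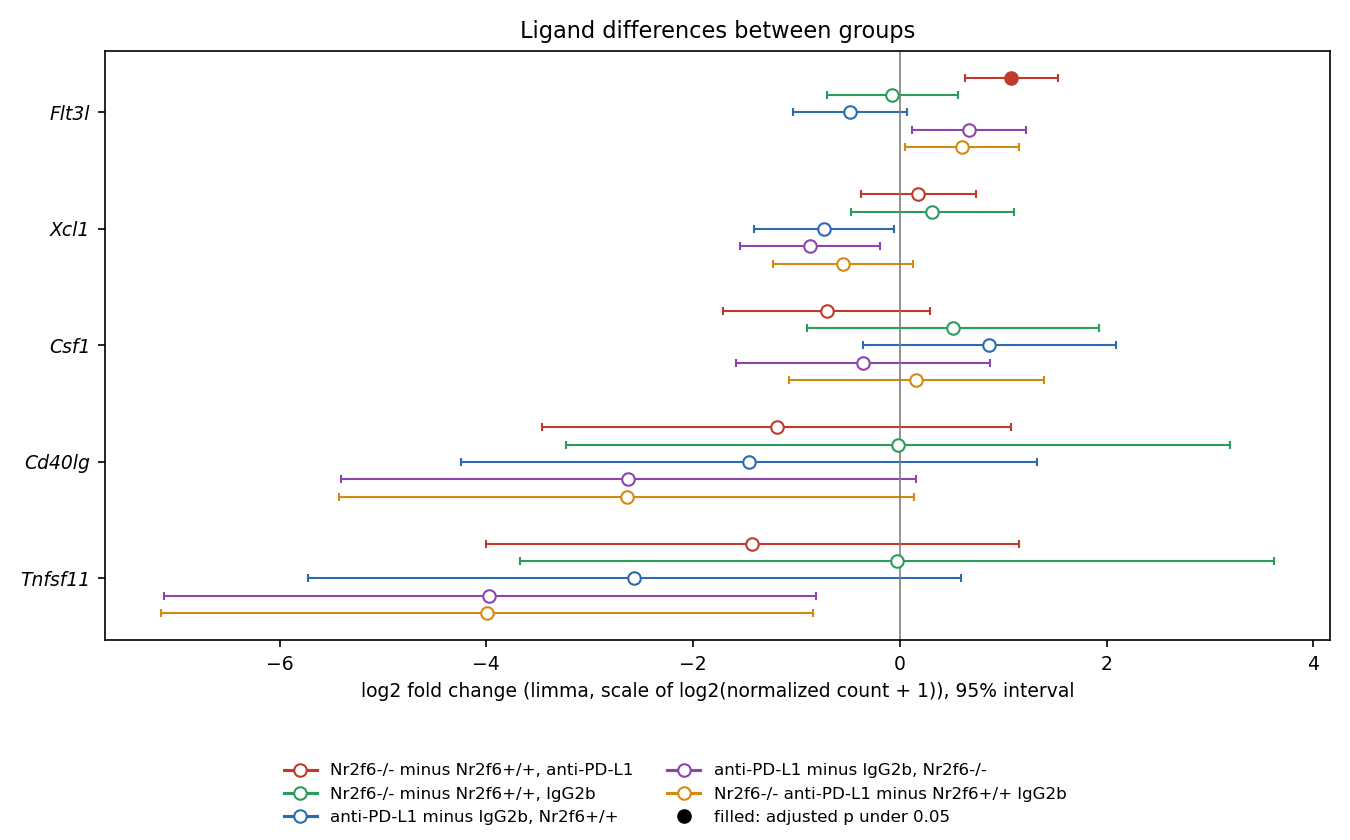
Log2 fold change of the 5 tested ligands (y axis) with 95% intervals on the x axis, for the 5 comparisons between groups; a filled point passes the adjusted threshold. Flt3l between the anti-PD-L1 groups, 1.08, is the one filled point, and the intervals of Cd40lg and Tnfsf11 span several log2 units.

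Csf1 (chr3:107741048-107760469) overlapped between all groups. It had 528, 375 and 437 normalized counts in Nr2f6+/+ IgG2b and 244, 819.8 and 1269.8 in Nr2f6-/- IgG2b. Under blockade it ran from 238 through 1053 to 1398 in Nr2f6+/+ mice and from 203 through 383 to 2292 in the combination group. Its largest difference was 0.87 between Nr2f6+/+ anti-PD-L1 and Nr2f6+/+ IgG2b (SE 0.60, limma adjusted p = 0.837). Library set went with Csf1 in these mice: in Nr2f6+/+ anti-PD-L1 the first set held 238 to 959.7 and the second 1147 to 1398, and within the first set the blockade difference was 0.19. Genotype under blockade gave -0.71 (95% interval -1.71 to 0.29, limma adjusted p = 0.675).

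Csf2 (chr11:54247270-54249899) was near the detection floor, with 53 reads over all libraries and at most 3 reads in 14 of the 18. It had 5.27, 2.08 and 12.4 normalized counts in Nr2f6+/+ IgG2b, 7.61, 0.94 and 0 in Nr2f6-/- IgG2b, from 0 to 17.8 in Nr2f6+/+ anti-PD-L1 and from 0 to 0.93 in the combination group, where 5 of 6 libraries had no read. The combination group lay below all 3 Nr2f6+/+ IgG2b libraries (exact permutation test, two-sided, p = 0.0238, the smallest possible, adjusted p = 0.204). That order held for 4.0% of genes tested, to which Csf2 does not belong. Of these 3 libraries, replicate 2 held 2 reads of Csf2, under the detection floor. The Csf2 values rest on a handful of reads, and no fold change is read from them. Antisense models overlap Xcl1 (Gm20743, at most 1.05 normalized counts in any library) and Csf2 (Gm12223, 0 in all), and the strand setting of the counting is not given in the sources used here.

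In the 4 other comparisons none of the 5 tested ligands passed in limma, edgeR or DESeq2. At an unadjusted limma p under 0.05 there were 0 ligands for genotype under IgG2b (5.35% of all genes tested), 1 for blockade in Nr2f6+/+ mice (7.24%), 3 for blockade in Nr2f6-/- mice (9.7%) and 2 for the combination group against Nr2f6+/+ IgG2b (9.04%). At the adjusted threshold limma called 0.0% of genes tested for genotype under IgG2b, 0.242% for blockade in Nr2f6+/+ mice, 0.325% for blockade in Nr2f6-/- mice and 0.617% for the combination against Nr2f6+/+ IgG2b. The comparison of the combination group with Nr2f6+/+ IgG2b shares libraries with the blockade comparison of each genotype, while those of the genotypes share none with each other.

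The receptors of these ligands were present at low levels in the same sorted cells, and most stood lower under blockade. Csf1r, the M-CSF receptor of macrophages, had 204 to 488 normalized counts in Nr2f6+/+ IgG2b, 199.8 to 523 in Nr2f6-/- IgG2b, 13.6 to 269.7 in Nr2f6+/+ anti-PD-L1 and 0 to 155 in the combination group. Csf2rb, the shared signaling chain of the GM-CSF receptor, had 137 to 378, 316 to 467, 2.46 to 190.3 and 0 to 143 in the same order. Cd40, the receptor of CD40 ligand on DC, macrophages and B cells, had 39.6 to 119, 61.2 to 175, 0 to 3.13 and 0 to 22.3. The anti-PD-L1 libraries thus lay below all IgG2b libraries for Cd40 in each genotype, as for 3.22% of genes tested in Nr2f6+/+ and 3.15% in Nr2f6-/- mice, and for Csf1r and Csf2rb in Nr2f6-/- mice.

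None of the 6 tested receptors passed the adjusted threshold in any comparison. For Cd40 the limma difference was -5.24 in Nr2f6+/+ (SE 1.39, unadjusted p = 0.000757, adjusted p = 0.137) and -5.20 in Nr2f6-/- mice (SE 1.39, adjusted p = 0.134), values that depend on the added count of 1, and within the first library set -4.56 and -4.18. All 6 tested receptors had a value below 0 for blockade in both genotypes, with a median of -2.29 in Nr2f6+/+ and -2.19 in Nr2f6-/- mice. Over all genes tested the medians were -0.10 and -0.04, and 57.3% and 52.8% were below 0. Cd40 passed the filter only through the IgG2b groups, with means of 67.7 (Nr2f6+/+) and 103.4 (Nr2f6-/-), against 0.87 and 4.70 under anti-PD-L1. Its separation and its place among the 6 therefore follow in part from the filter. Tnfrsf11a and Tnfrsf11b, under the filter, are not counted. Csf2ra, the ligand-binding chain of the GM-CSF receptor, was below 0 in Nr2f6-/- mice on the log scale alone (-0.33, SE 1.53, limma adjusted p = 0.972). Its mean there was 21.3 normalized counts under IgG2b, with a highest library of 27.1, and 37.4 in the combination group, where 3 of 6 libraries (37.1, 72.9 and 95.9) lay above all 3 IgG2b libraries. Xcr1, the receptor of XCL1 on cross-presenting DC, had 5.27 to 114 normalized counts in Nr2f6+/+ IgG2b, 0.95 to 10.4 in Nr2f6-/- IgG2b, 0 to 108 in Nr2f6+/+ anti-PD-L1 and 0 to 20.6 in the combination group, with a genotype difference of -2.96 under blockade (SE 1.30, limma unadjusted p = 0.0305, adjusted p = 0.452). Flt3, the receptor of FLT3 ligand, had no read in 10 of the 18 libraries, including all of the second set, and the RANK gene Tnfrsf11a and the decoy receptor gene Tnfrsf11b were under the filter.

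**Figure D5:**
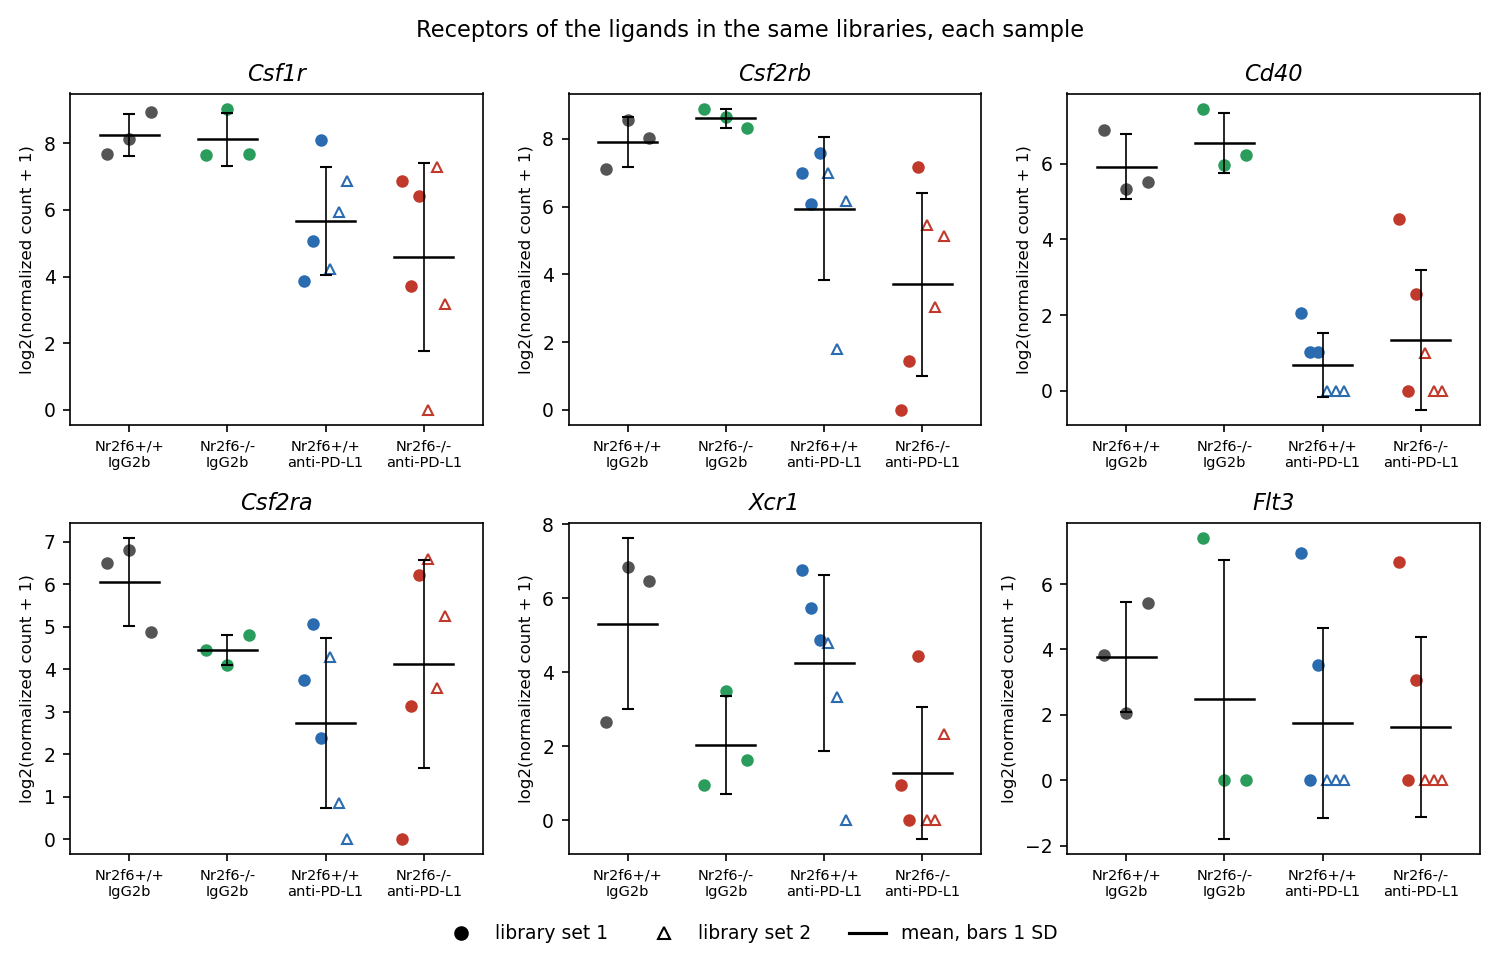
Levels of the 6 receptor genes that passed the filter, as log2(normalized count + 1) on the y axis, in each library by group; circles are the first and triangles the second library set, lines are means and bars 1 SD. Cd40 lies at 39.6 normalized counts or more in the IgG2b libraries and at 22.3 or less in all anti-PD-L1 libraries.

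Macrophage and DC markers stood lower under blockade as well, and these lists hold 3 of the receptors above (Csf1r among the macrophage markers, Flt3 and Xcr1 among the DC markers). All 14 macrophage markers had a value below 0 for blockade in each genotype, with medians of -3.31 in Nr2f6+/+ and -3.68 in Nr2f6-/- mice, and Lyz2, a lysozyme of myeloid cells, fell by 2.83 (SE 0.39, limma adjusted p = 0.000387) and by 2.87 (SE 0.39, limma adjusted p = 0.000318). Lyz2 passed within the first library set too, at -2.97 and -2.74 (limma adjusted p = 0.00854 and 0.0301). Arg1, arginase 1, fell in Nr2f6+/+ mice (-7.46, limma adjusted p = 0.0363) and C1qb, a complement gene of macrophages, in Nr2f6-/- mice (-3.27, limma adjusted p = 0.0123), and neither passed within the first set (-7.21 and -2.71, limma adjusted p = 0.200 and 0.0672). Adgre1, Lyz2, C1qb, Mrc1 and Arg1 fell in the combination group against Nr2f6+/+ IgG2b, of which Lyz2 and C1qb also passed within the first set. The platelet gene Ppbp also fell with blockade in Nr2f6+/+ mice (-7.48, limma adjusted p = 0.00136), but it had no read in the Nr2f6-/- IgG2b libraries either. It was detected in Nr2f6+/+ IgG2b alone, at 77.9 to 452 normalized counts, and so passed the filter through that group alone. Arg1 passed the filter through the IgG2b groups, with means of 533 (Nr2f6+/+) and 88.5 (Nr2f6-/-), against 3.34 and 0 under anti-PD-L1. The falls of Ppbp and Arg1 were thus largely fixed by the filter and carry no separate weight. Pf4, another platelet gene, had a mean of 2190 in Nr2f6+/+ IgG2b and of 417 in Nr2f6-/- IgG2b. The remaining genes of the 4 on the platelet list, Itga2b and Gp9, had 0 reads in the IgG2b libraries of either genotype. The list therefore does not show that platelets were the source of Ppbp and Pf4, which was not tested. The 2 tested platelet genes passed as lower in the combination group against Nr2f6+/+ IgG2b. No gene of the B cell, melanoma or stromal lists passed in limma in any comparison. Of 12 DC markers, 10 were tested and all 10 were below 0 in each genotype, none past the threshold, with summed levels of 1033 to 1147 normalized counts in Nr2f6+/+ IgG2b, 1060 to 1430 in Nr2f6-/- IgG2b, 346.7 to 1451 in Nr2f6+/+ anti-PD-L1 and 265.7 to 1159 in the combination group. Clec9a and Il12b, DC genes, were at or near 0 in most libraries. NK cell markers, which bear on Xcl1, summed to 824 to 2143, 1057 to 1689, 547.5 to 1913 and 987.7 to 1879 in the same order, most of it Eomes, which T cells also express, while Ncr1 had 0 reads in all IgG2b libraries. The part of these cells in the values of Xcl1, Csf1, Cd40lg and Tnfsf11 was not tested. For Flt3l between the anti-PD-L1 groups, none of the macrophage or DC markers passed in limma (4 and 1 had an unadjusted p under 0.05), with medians of -0.91 over 14 and -0.20 over 10 genes. In that comparison all 4 tested melanoma markers were below 0 (median -1.22, none past the threshold, 2 with an unadjusted limma p under 0.05), with Dct at -1.44 (limma adjusted p = 0.197) and Mlana at -2.85 (limma adjusted p = 0.299). Their summed level over 5 genes was 2011 to 7107 normalized counts in Nr2f6+/+ anti-PD-L1 and 736.2 to 4106 in the combination group. All 10 T cell markers were above 0 (median 0.27, none past the threshold, 2 with an unadjusted limma p under 0.05), with Cd8b1, the other CD8 chain, at 0.68 (limma adjusted p = 0.121). The part of these cells in the value of Flt3l was not tested beyond the ratios to Cd3e and Cd8a.

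Other ligands of T cells were counted for comparison with Flt3l, from lists of signals that were chosen with earlier results of these data known. Among 10 other TNF family ligands, including Fasl and Ltb, 0 passed in limma in any comparison. Between the anti-PD-L1 groups 3 of them had an unadjusted limma p under 0.05, Tnf at 1.93, Tnfsf9 at -3.07 and Cd70 at -2.90. Of the other cytokines 4 of 10 were tested and 0 passed in limma in any comparison, with at most 1 at an unadjusted p under 0.05 in each. Ifng, the main effector cytokine, stood 0.91 higher in the combination group than in Nr2f6+/+ IgG2b (SE 0.25, limma adjusted p = 0.0927). Among 7 chemokines and CD28 family genes, Ccl5, a chemokine for T cells and myeloid cells, rose beside Flt3l between the anti-PD-L1 groups by 1.51 (SE 0.22, limma adjusted p = 0.000732), with 25410 to 111400 normalized counts in Nr2f6+/+ and 108600 to 157300 in the combination group. Ccl3, Ccl4 and Ccl5 rose in the combination group against Nr2f6+/+ IgG2b, by 1.21, 1.52 and 1.69 (limma adjusted p = 0.0343, 0.0184 and 0.00186), where 0.158% of genes tested rose, and Flt3l, at 0.60 there, did not pass. Ccl5 rose with blockade in Nr2f6-/- mice too (1.46, SE 0.27, limma adjusted p = 0.0109). Ccl5 passed within the first library set against Nr2f6+/+ IgG2b (1.73, limma adjusted p = 0.0251) and did not with blockade in Nr2f6-/- mice (1.51, limma adjusted p = 0.113), and Ccl3 and Ccl4 did not pass (1.43 and 1.34, limma adjusted p = 0.0692 and 0.0735). Of 11 tested genes that respond to T cell receptor signals, Egr1, an immediate early transcription factor, rose between the anti-PD-L1 groups by 1.08 (SE 0.21, limma adjusted p = 0.0197). No other gene of that list passed there. In that comparison 8 of the 11 were above 0 and 3 below, among the latter Tnfrsf9 at -0.78 (limma adjusted p = 0.0634). With blockade in Nr2f6+/+ mice Egr1 fell by 1.28 (limma adjusted p = 0.0169) and the orphan receptor gene Nr4a1 by 1.74 (limma adjusted p = 0.00927), and Nr4a1 fell by 1.74 in Nr2f6-/- mice as well (limma adjusted p = 0.0104). Tcf7, a transcription factor of stem-like T cells, fell by 1.45 with blockade in Nr2f6+/+ mice (limma adjusted p = 0.00912) and by 1.49 in the combination group against Nr2f6+/+ IgG2b (limma adjusted p = 0.00618). Within the first set both Tcf7 differences passed (-1.67 and -1.40, limma adjusted p = 0.0113 and 0.0336), Nr4a1 passed in Nr2f6+/+ mice alone (-1.62 and -1.08, limma adjusted p = 0.00854 and 0.118) and Egr1 did not pass (-1.14, limma unadjusted p = 0.00105).

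Over the 18 libraries Pearson correlations between the 5 tested ligands lay between -0.46 for Flt3l with Tnfsf11 and 0.44 for Xcl1 with Tnfsf11. After removal of the group means these pairs stood at -0.55 and 0.165, and the lowest was -0.68 for Xcl1 with Cd40lg. Among 9638 genes whose mean reached 50 normalized counts, the 3 most like Flt3l were 2310045N01Rik (r = 0.81), Adcy7 (0.78) and U2af1 (0.77), and after removal of the group means their correlations were 0.44, 0.30 and 0.09. For Xcl1 they were Cbfb (0.89), Tfrc (0.77) and Spi1 (0.75), and within groups 0.87, 0.59 and 0.54. Csf1 was most like Ap3s2 (0.78), 1810043H04Rik (0.78) and Rtn4ip1 (0.75), Cd40lg most like Ccdc82 (0.77), Grk5 (0.76) and Clec10a (0.76), and Tnfsf11 most like Iglc3 (0.84), Cul3 (0.80) and Kctd12 (0.78). These are descriptions over 18 points that share groups, library sets and size factors.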

How the data were processed

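The authors trimmed reads of the 3′ tag libraries with Cutadapt and Trimmomatic, mapped them to mm10 with STAR and Bowtie2 and counted reads per gene with HTSeq; their versions and the annotation are not given in the sources used here. They deposited a signal per gene and sample, which is its read count over the library's size factor, with replicates not pooled. All values of a column were whole multiples of 1 step (100% within 0.01 reads), which gave back the reads for the count models; a table of the authors' own comparisons was not used. Depth was 12473391 to 18609482 reads on genes, and the number of reads limits precision for Csf2, Tnfsf11 and the receptors.

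Groups were taken from the labels. One limma 3.58.1 model (R 4.3.3, trend) of the 4 group means was fitted to log2(normalized count + 1) over 18 samples and 11992 genes with a minimum mean of 10, with a two-sided test, 5 contrasts and an interaction, because DESeq2, the study's tool, needs counts. edgeR 4.0.16 and DESeq2 1.42.0 on recovered reads, pseudocounts of 0.5 and 10, all detected genes or a minimum mean of 50, quantile and total scaling, fewer samples, library set as a covariate and a replicate block were the alternatives. Ratios and Csf2 were tested by exact permutation in SciPy 1.17.1. The fits were tested on simulated data. Named are the 6 ligands, their receptors, list genes past the threshold or with the highest means, and T cell genes. Per ligand, the 3 genes with the highest correlation are named too. Tnf, Tnfsf9, Tnfrsf9, Cd70, Clec9a, Il12b, Ncr1, Itga2b and Gp9 were named after their values were seen. The members and lists were chosen with earlier results of these data known.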

Additional observations from a re-analysis of the deposited data

Results flagged for a closer look

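In groups of 6 libraries, 12 sets of ligand values were tested with Dixon's 95% limit for the gap over the range (0.625). In 5 of them a value lay farther from the rest. Chance passes the limit in about 1 in 20 sets only where values are normally spread. It was applied to normalized counts and not to the log2 values of the fits, so the flags do not carry over to the fits. Xcl1 had 2999 normalized counts in Nr2f6+/+ anti-PD-L1 replicate 4, where the next library had 1722. Csf1 had 2292 in combination replicate 6, against 789 in the next. Tnfsf11 had 71.2 in combination replicate 2, against 19.8. Csf2 had 17.8 in Nr2f6+/+ anti-PD-L1 replicate 1, against 2.04, and 0.93 in combination replicate 1, a single read, against 0. Every other combination library had no read of Csf2, so the rule would flag any value above 0 there.

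The effect of anti-PD-L1 on Flt3l differed by 1.15 on the log2 scale between genotypes in the interaction test (limma unadjusted p = 0.0051), which did not pass after adjustment over all genes (limma adjusted p = 0.974). All 6 Nr2f6+/+ anti-PD-L1 libraries lay below their IgG2b controls, and 5 of 6 combination libraries lay above theirs.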

How the results depend on the processing

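Flt3l between the anti-PD-L1 groups kept its direction in every setting, with adjusted p = 0.0159 to 0.0855 and a log2 fold change of 0.99 to 1.17 when 1 library was left out. Over the 30 fold changes of the tested ligands, 346 of 360 values under the other settings kept their direction and side of the threshold, 11 changed sign and 3 lost the call. The count of ligands past the threshold between the anti-PD-L1 groups, 1, became 0 with only the 2 groups compared and in either library set alone, and 0 to 1 without 1 library. The second set holds no IgG2b library. The cause of these changes was not tested. Low read numbers limit Csf2, and few reads in many libraries limit Tnfsf11 and Cd40lg.

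Same-numbered libraries of different groups did not deviate together (r = -0.029 to 0.037 over 21 pairs, against -0.046 to 0.063 over 96 other pairs, none over 0.1). Correlations over all genes tested in such small groups cannot show whether these libraries share more than a number. With the replicate block, 18 genes rose and 13 fell between the anti-PD-L1 groups, against 11 and 10 without it, and Flt3l had a limma adjusted p of 0.0398. With the library set as a covariate instead of the block, 17 genes rose and 12 fell in that comparison. Other counts of genes past the threshold there were 5 and 4 with no filter, 2 and 2 with only these groups, 13 and 21 in the first library set, 0 and 0 in the second, 84 and 100 in DESeq2, and 7 and 5 or 5 and 4 without combination replicate 1 or 2 and 6 and 5 or 8 and 5 without Nr2f6+/+ anti-PD-L1 replicate 4 or 5. For blockade in Nr2f6+/+ mice, 0 rose and 29 fell in limma, against 2 and 58 with a pseudocount of 10, 0 and 12 with the library set as a covariate or the block, 0 and 15 with only 2 groups, 0 and 19 in edgeR or with a mean of at least 50, 36 and 58 in DESeq2, and 0 and 10, 0 and 8 or 0 and 6 without Nr2f6+/+ IgG2b replicate 1, 2 or 3. For blockade in Nr2f6-/- mice, 16 rose and 23 fell, against 7 and 10 with no filter, 6 and 13 with only 2 groups, 2 and 6 in the first set, 143 and 87 in DESeq2, and 7 and 7, 9 and 6 or 7 and 6 without Nr2f6-/- IgG2b replicate 1, 2 or 3. For the combination group against Nr2f6+/+ IgG2b, 19 rose and 55 fell, against 28 and 88 with a pseudocount of 10, 9 and 32 in edgeR, 92 and 85 in DESeq2, and 8 and 14, 3 and 7 or 7 and 8 without Nr2f6+/+ IgG2b replicate 1, 2 or 3. Without combination replicate 2, 3 or 5 the counts there were 13 and 32, 11 and 38 or 12 and 32. Genotype under IgG2b gave 0 in limma and edgeR (641 and 602 at an unadjusted p under 0.05), 3 and 11 with no filter and 29 and 59 in DESeq2; the interaction gave 0 in limma and edgeR (596 and 630), 5 and 0 with no filter and 47 and 29 in DESeq2.

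Of the other signal lists (TNF ligands, cytokines, chemokines and CD28 family), 1 gene passed between the anti-PD-L1 groups, against 0 in either library set and 2 in DESeq2. For blockade in Nr2f6+/+ mice 0 passed, against 1 in DESeq2. In Nr2f6-/- mice 1 passed, against 0 with no filter or in the first set and 0 to 2 without 1 library. Against Nr2f6+/+ IgG2b 3 passed in the combination group, against 1 with no filter, with only 2 groups or in the first set, and 1 to 3 without 1 library.

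Between the anti-PD-L1 groups, the second library set alone gave log2 fold changes of -0.0581 for Xcl1, 1.65 for Cd40lg and 0.000399 for Tnfsf11, opposite in sign to the reported ones, and 2.13 for the ratio of Cd40lg to Cd4; the first set gave 0.129 for the ratio of Xcl1 to Cd8a. Without 1 library these were -0.052 to 0.379 for Xcl1, -1.87 to 0.00339 for Cd40lg to Cd4, -0.57 to -0.228 for Xcl1 to Cd8a and 0.43 to 0.684 for Flt3l to Cd8a. Genotype under IgG2b changed sign for Cd40lg with quantile normalization (0.11) and for Tnfsf11 with quantile normalization (0.202), edgeR (0.0887) and DESeq2 (0.0869). Without 1 library it ran from -0.678 to 0.751 for Cd40lg, -0.584 to 0.552 for Tnfsf11, -0.21 to 0.0493 for Flt3l, -0.696 to 0.526 for Cd40lg to Cd4, -0.17 to 0.269 for Xcl1 to Cd8a and -0.232 to 0.806 for Cd8a to Cd4.

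For blockade in Nr2f6+/+ mice the first set gave 0.381 for Cd40lg to Cd4 and -1.18 for Xcl1 to Cd8a, where 3 against 3 cannot reach the threshold in the exact permutation test. Without 1 library the values were -1.01 to -0.715 for Xcl1 to Cd8a, -0.107 to 0.563 for Cd8a to Cd4 and -0.871 to -0.729 for Flt3l to Cd3e. In Nr2f6-/- mice the first set gave -1.05 for Xcl1 to Cd8a, and without 1 library the values were -1.49 to -1.05 for it, -2.88 to -1.25 for Cd40lg to Cd4 and -1.04 to 0.143 for Csf1. The combination group against Nr2f6+/+ IgG2b gave -0.579 for Csf1 with the library set as a covariate or with the replicate block and -0.646 in the first set, against a positive value in the reported fit; in the first set it gave -1.06 for Xcl1 to Cd8a, 0.961 for Cd8a to Cd4 and 0.0213 for Flt3l to Cd8a. Without 1 library it ran from -0.282 to 0.417 for Csf1, -1.43 to -1.13 for Xcl1 to Cd8a, 0.676 to 1.1 for Cd8a to Cd4, -0.0602 to 0.15 for Flt3l to Cd3e and -0.179 to 0.0355 for Flt3l to Cd8a. The Xcl1 interaction was 0.104 in the first set and -0.366 to 0.0646 without 1 library. The exact permutation test of Csf2 in the combination group against Nr2f6+/+ IgG2b gave p = 0.0357 to 0.0714 without 1 library.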
